A study of Mus musculus with 27 samples.

Results

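The histone cluster genes are the 68 gene symbols among 23382 in the RNA-seq tables that begin with Hist1h, Hist2h, Hist3h or Hist4h. By the letters after that prefix, 6 encode the linker histone H1, 18 encode H2A, 19 encode H2B, 12 encode H3 and 13 encode H4. They were followed through RNA-seq, ChIP-seq of histone H3 methylated at lysine 4 and ERRBS, a bisulfite method that reads cytosine methylation in CpG-rich DNA. The cells were B220+ cells of the VavPBcl2 mouse lymphoma model, B220 being a form of CD45 found on B cells, and in all groups the cells carried the VavPBcl2 transgene, in which the Vav gene's regulatory sequence drives the survival gene Bcl2 in blood cells. In the SHMT2 group, stem cells of embryonic livers (E13.5) received the retroviral vector MSCV-SHMT2. In the vector group they received the empty vector. As the RNA-seq and ChIP-seq labels give it, the infected cells were transplanted into irradiated wild type mice, whose own cells may persist, and B220+ cells were taken from spleens with tumors. The ERRBS labels name only the cells, the model and the vector. SHMT2 is the mitochondrial serine hydroxymethyltransferase, an enzyme that feeds the pool of folate-bound one-carbon units.

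RNA-seq had 3 SHMT2 and 3 vector libraries, H3K4me3 had 3 and 2, H3K4me1 had 2 and 2, and ERRBS had 3 and 3. TPM, a measure of transcript abundance corrected for transcript length and library size, keep no depth, so the depth of the RNA-seq is unknown. ERRBS gave a mean coverage of 63.0 to 71.6 calls per cytosine. The B cell markers fixed for the check, among them Cd79a and Cd79b, were all measured above 1 TPM, with summed levels of 8620 to 8834 TPM in SHMT2 libraries and 6702 to 9222 TPM in vector libraries. Vector replicates 2 and 3 stood apart: 13 erythroid markers summed to 5385 and 1011 TPM there, while the SHMT2 libraries had 69.3 to 189 TPM and vector replicate 1 had 77.5 TPM. All 13 had a lower SHMT2 mean, as did 16 of 17 tested myeloid markers. T cell markers other than Cd2, which alone had 214 to 406 TPM, summed to 15.2 to 36.7 TPM in SHMT2 and 13.8 to 23.5 TPM in vector libraries, and natural killer cell markers to 21.8 to 41.3 and 23.6 to 64.8 TPM. Plasma cell markers summed to 2186 to 4109 TPM in SHMT2 and 1792 to 3131 TPM in vector libraries. Shmt2 itself measured 244, 345 and 259 TPM in SHMT2 libraries, above all 3 vector libraries at 174, 223 and 157 TPM (limma adjusted p = 0.216). The labels do not tie the libraries of a group to separate animals, so the spread between them may be technical in part.

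Core histones H2A, H2B, H3 and H4 wrap DNA into nucleosomes, and H1 binds the DNA between them. Most cluster genes are transcribed in S phase, when new chromatin is made, and their messenger RNAs usually end in a stem-loop in place of a poly(A) tail. The RNA-seq libraries were made with a stranded mRNA kit, per the labels. How far that kit captured messages without a poly(A) tail was not tested. H3K4me3 marks active and poised gene starts, H3K4me1 lies around them and over enhancers, and methylation of a CpG-rich start is typical of genes that are silent in a tissue. Hist1h1t, Hist1h2aa and Hist1h2ba are cluster members known for expression in male germ cells.

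All 68 symbols were placed on the RefSeq annotation of mouse build GRCm38.p6, in 4 clusters. The Hist1 cluster on chromosome 13 held 54 members in 2 blocks, 23 of them in 328 kb (chr13:21715711-22043658) and 31 in 404 kb (chr13:23531044-23934913). The Hist2 cluster on chromosome 3 held 10 members in 50.3 kb (chr3:96219885-96270192). Hist3 on chromosome 11 held 3 members and Hist4 on chromosome 6 held 1, Hist4h4. Of the 62 members with an annotated start, 10 pairs of an H2A and an H2B gene pointed away from each other with starts 164 to 281 bases apart.

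The promoters of 6 members on chromosome 13, from RefSeq build GRCm38.p6, are printed as examples. Each runs 5′ to 3′ along the gene's strand, from 250 bases before its start to 50 after it, in lower case. Capitals mark matches on either strand to TATAAA (letters of the TATA box), CCAAT and ATTTGCAT (the octamer bound by Oct factors). They also mark AAACACA (the AC box of H1 genes) and GGTCCG (a part of the H4 promoter element). None of these motifs contains another, and a match counts at any distance from the start within the printed bases. No RNA, peak or methylation result was tested against the motifs. Hist1h1c (chr13:23738557-23738856, plus strand) had the highest RNA level, Hist1h2bj (chr13:22042948-22043247, plus strand) the smallest p between groups, and Hist1h4i (chr13:22041313-22041612, minus strand) the highest RNA level of the H4 genes. Hist1h2bq (chr13:21810150-21810449, minus strand) shared all 300 bases with Hist1h2br. Hist1h2ba (chr13:23934107-23934406, minus strand) had a methylated start, and Hist1h1t (chr13:23695561-23695860, plus strand) lacked H3K4me3.
Hist1h1c: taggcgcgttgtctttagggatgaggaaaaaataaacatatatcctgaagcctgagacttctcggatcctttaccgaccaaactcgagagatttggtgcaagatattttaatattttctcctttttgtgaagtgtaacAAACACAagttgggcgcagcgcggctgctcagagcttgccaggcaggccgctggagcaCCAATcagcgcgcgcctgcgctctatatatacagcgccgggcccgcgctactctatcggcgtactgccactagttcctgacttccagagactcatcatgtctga
Hist1h2bj: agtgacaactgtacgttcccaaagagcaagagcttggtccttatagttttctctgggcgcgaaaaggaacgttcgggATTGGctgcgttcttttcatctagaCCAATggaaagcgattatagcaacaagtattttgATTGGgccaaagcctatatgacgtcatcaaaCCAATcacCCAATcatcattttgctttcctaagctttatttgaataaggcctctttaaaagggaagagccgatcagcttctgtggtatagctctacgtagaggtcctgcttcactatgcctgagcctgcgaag
Hist1h4i: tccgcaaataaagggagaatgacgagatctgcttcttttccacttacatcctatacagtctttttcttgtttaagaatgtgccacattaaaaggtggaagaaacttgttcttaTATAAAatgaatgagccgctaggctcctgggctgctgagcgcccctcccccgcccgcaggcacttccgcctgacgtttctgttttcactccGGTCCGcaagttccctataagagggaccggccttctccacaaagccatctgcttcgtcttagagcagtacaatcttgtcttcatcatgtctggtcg
Hist1h2bq: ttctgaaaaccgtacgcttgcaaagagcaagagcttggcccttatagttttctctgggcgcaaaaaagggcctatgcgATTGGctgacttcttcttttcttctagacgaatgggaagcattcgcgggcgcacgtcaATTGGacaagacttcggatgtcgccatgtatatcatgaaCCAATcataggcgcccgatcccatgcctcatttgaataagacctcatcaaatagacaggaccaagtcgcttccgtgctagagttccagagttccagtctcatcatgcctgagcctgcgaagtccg
Hist1h2ba: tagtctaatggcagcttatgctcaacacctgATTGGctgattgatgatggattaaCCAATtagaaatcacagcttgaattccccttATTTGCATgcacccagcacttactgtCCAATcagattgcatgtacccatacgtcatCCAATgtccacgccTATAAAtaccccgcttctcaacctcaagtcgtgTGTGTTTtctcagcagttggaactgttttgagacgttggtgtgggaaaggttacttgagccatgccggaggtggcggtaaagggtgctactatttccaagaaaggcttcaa
Hist1h1t: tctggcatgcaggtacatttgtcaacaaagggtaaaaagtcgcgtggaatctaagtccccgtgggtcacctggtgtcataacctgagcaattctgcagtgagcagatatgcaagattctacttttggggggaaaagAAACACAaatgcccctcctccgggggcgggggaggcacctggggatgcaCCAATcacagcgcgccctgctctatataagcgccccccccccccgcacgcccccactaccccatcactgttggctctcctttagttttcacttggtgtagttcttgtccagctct

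CCAAT stood in the promoters of all 6 H1 genes, all 18 H2A genes, 16 of 16 H2B genes and 10 of 10 H3 genes with a promoter sequence, but in 3 of 12 H4 promoters. Of all 27025 mouse genes with a promoter sequence, 41.1% held it. Counts are by gene, and a gene with several promoters counted if any of them matched. Promoters of the H2A and H2B pairs that point apart overlap, so a match there can count for both genes. Some members, such as Hist1h2bq and Hist1h2br, have the same promoter bases. The genes counted are therefore not independent. GGTCCG was found in 11 of 12 H4 genes, in 1 H2B and 1 H3 gene, and in 9.44% of all genes. AAACACA stood in 5 of 6 H1 genes, 2 of 18 H2A and 2 of 16 H2B genes, against 8.22% of all genes. ATTTGCAT occurred in 7 of 18 H2A and 7 of 16 H2B genes, in none of the H1, H3 and H4 genes, and in 1.97% of all genes. TATAAA was present in 4 to 11 genes of each type, and in 15.7% of all genes. A match describes letters in this window and is not evidence of binding.

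**Figure D1:**
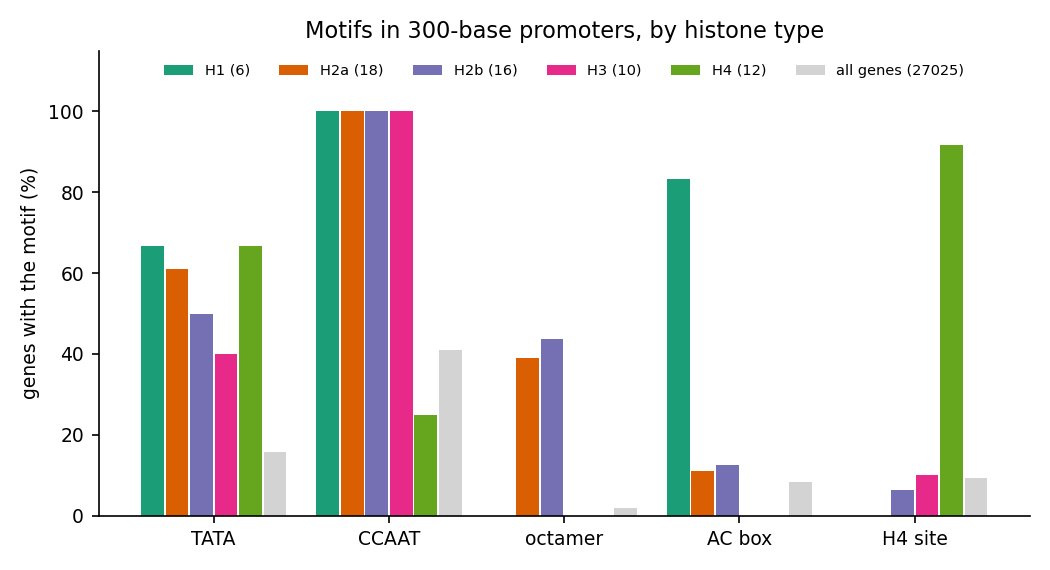
Percent of genes with each motif in a 300-base promoter (y axis) for the 5 motifs (x axis). There is 1 bar per histone type and a grey bar for all 27025 genes, with the number of genes in brackets. CCAAT was found in all H1, H2A, H2B and H3 genes with a promoter sequence. GGTCCG, here called the H4 site, was found in 11 of 12 H4 genes.

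Linker histone genes led in the TPM of these libraries, which need not follow the histone mRNA content of the cells. Over the 6 libraries H1 genes made up 71.1% of the summed TPM of the 68 members, H2B genes 13.9%, H4 genes 7.09%, H2A genes 5.51% and H3 genes 2.44%. Hist1h1c alone made up 45.9%. In 22 members the mean over the 6 libraries was at least 1 TPM, and these were tested. A further 36 were detected below that mean, and 10 were listed at 0 in every library. A listed 0 need not mean absence in these tables.

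The summed level of all 68 members was 319, 222 and 203 TPM in the SHMT2 libraries, against 109, 267 and 156 TPM in the vector libraries. The groups overlapped: SHMT2 replicate 1 was highest and vector replicate 1 lowest, and vector replicate 2 lay above 2 of the 3 SHMT2 libraries. H1 genes summed to 181 ± 55.9 TPM in SHMT2 libraries and 122 ± 61.4 TPM in vector libraries (SD, n = 3 each), a log2 ratio of 0.57. H2A genes summed to 13.53 ± 2.33 and 9.89 ± 3.50 TPM in SHMT2 and vector libraries (log2 ratio 0.45), and H4 genes to 17.1 ± 3.06 and 13.1 ± 3.96 TPM (0.38). For H2B genes the sums were 31.1 ± 3.57 TPM in SHMT2 and 27.8 ± 9.85 TPM in vector libraries (0.16), and for H3 genes 5.39 ± 0.859 and 4.996 ± 2.14 TPM (0.11). In all 5 types the vector mean was lower and the ranges of the groups overlapped. Leaving out single libraries gave log2 ratios for H1 between 0.29 (without SHMT2 replicate 1) and 1.04 (without vector replicate 2). The H2B ratio turned to −0.04 without vector replicate 1 and the H3 ratio to −0.10 without it, while both were highest without vector replicate 2, at 0.48 and 0.51. The H3 ratio was −0.00461 without vector replicate 3.

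**Figure D2:**
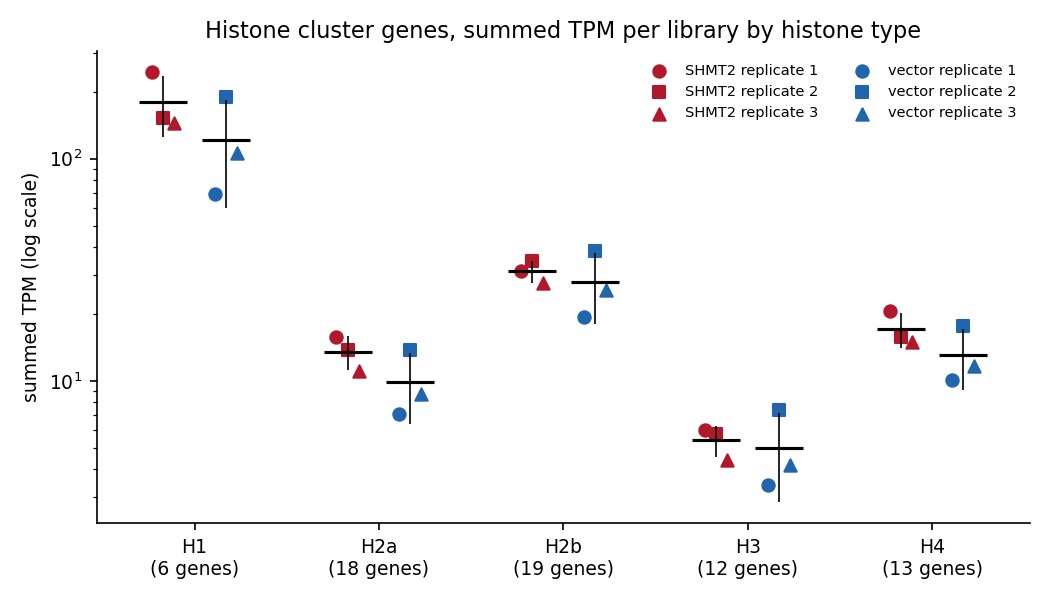
Summed TPM of the genes of each histone type in each library (log scale), SHMT2 left in red and vector right in blue, with a marker shape per replicate. Horizontal bars are means and vertical bars 1 SD (n = 3 each). Vector replicate 1 is lowest in every type, and SHMT2 and vector libraries overlap in every type.

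limma called 0 of the 22 tested members between SHMT2 and vector at an adjusted p under 0.05, and 0% of all 11117 genes tested. At an unadjusted p under 0.05, 2 members were higher in SHMT2, where 11.3% of all genes tested were, and 1 was lower, where 5.4% were. The groups did not overlap in 3 members higher in SHMT2 (16.9% of all genes tested) and 1 lower (8.26%). These shares are near those of all genes. Higher SHMT2 means were fitted for 16 members and lower ones for 6, where 53.2% of all genes tested had a higher mean. The median log2 fold change on the log2(TPM + 1) scale, which understates the change of low genes, was 0.26 over the 22 members and 0.02 over all genes tested.

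These counts changed with the libraries used. Without vector replicate 2, 8 of the 22 members were higher in SHMT2 at an unadjusted p under 0.05 (11.2% of all genes tested), and in 13 the SHMT2 libraries lay above both remaining vector libraries (23.5%), with 0 members called by limma. Without vector replicate 1, 845 genes were called over all genes and none of them was a member, while 3 members were lower in SHMT2 without overlap (22.1% of all genes tested). Without SHMT2 replicate 3, 5 members were higher without overlap (19.3%). Leaving out SHMT2 replicate 1, SHMT2 replicate 2, vector replicate 1 or vector replicate 3 left 1 member higher at an unadjusted p under 0.05 (6.72% to 15.8% of all genes tested), and leaving out SHMT2 replicate 1 or 3 left 0 lower (3.45% and 2%). The lowest of the 6 libraries was vector replicate 1 in 15 of the 22 members, and the highest was vector replicate 2 in 9, SHMT2 replicate 1 in 8 and SHMT2 replicate 2 in 5. The summed myeloid markers were 1037, 444 and 461 TPM in SHMT2 and 318, 3201 and 2223 TPM in vector libraries. Of 26 S phase genes, 16 were highest in vector replicate 2 and 23 lowest in vector replicate 3. Rrm2, a subunit of ribonucleotide reductase, measured 13.2, 14.4 and 14.4 TPM in SHMT2 and 13.4, 58.8 and 11.96 TPM in vector libraries, and Ccna2, which encodes cyclin A, 15.9, 18.2 and 19.4 TPM in SHMT2 and 12.7, 42.8 and 10.2 TPM in vector libraries. These genes were chosen after their values were seen. All 26 S phase genes summed to 2014, 2234 and 2255 TPM in SHMT2 and 1920, 1945 and 1598 TPM in vector libraries. On that sum each vector library lay below each SHMT2 library. Pola1, Mcm3 and Rfc3 were the most abundant. The other 23 summed to 724, 749 and 753 TPM in SHMT2 and 702, 873 and 484 TPM in vector libraries, with vector replicate 2 highest. The erythroid markers, given above, were likewise highest in vector replicate 2. In each group the library with the highest histone sum also had the highest myeloid sum. Within the vector group the histone and myeloid sums had the same order. Within the SHMT2 group, replicate 2 had the lower myeloid sum and replicate 3 the lower histone sum, 203 TPM against 222 TPM. SHMT2 replicate 3 also had the highest erythroid sum of its group, 189 TPM. Across the groups, vector replicate 3, with 2223 TPM of myeloid markers, had a histone sum of 156 TPM, below each SHMT2 library. The part of these cell types and of S phase in the histone values was not tested, and in bulk samples fewer cells of a type and less RNA per cell cannot be told apart.

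Among the linker histones, Hist1h1c measured 141, 95.9 and 98.6 TPM in SHMT2 libraries and 48.8, 121 and 80.5 TPM in vector libraries. The groups overlapped through vector replicate 2 (log2 fold change 0.49, SE 0.34, limma adjusted p = 0.481). Hist1h1d measured 67.2, 35.2 and 25.7 TPM in SHMT2 and 10.2, 37.0 and 11.7 TPM in vector libraries. It had the largest log2 fold change of the tested members, 1.20 (SE 0.56, limma adjusted p = 0.344), and vector replicate 2 lay among the SHMT2 libraries. Hist1h1e measured 21.4, 10.1 and 9.26 TPM in SHMT2 and 4.14, 11.1 and 6.34 TPM in vector libraries. Hist1h1b measured 13.2, 9.48 and 9.40 TPM in SHMT2 and 5.30, 17.1 and 5.89 TPM in vector libraries. Both again overlapped through vector replicate 2. Hist1h1a, the fifth somatic H1 gene of the cluster, lay between 1.15 and 3.54 TPM, and the germ cell gene Hist1h1t was listed at 0.

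For H2A, Hist1h2ac led with 8.17, 6.29 and 5.61 TPM in SHMT2 libraries and 2.98, 6.75 and 4.23 TPM in vector libraries. Hist3h2a measured 2.17, 2.62 and 2.23 TPM in SHMT2 and 1.91, 2.35 and 2.17 TPM in vector libraries, a narrow range that overlapped. In Hist1h2an all 3 SHMT2 libraries, at 1.39, 1.97 and 1.15 TPM, lay above the vector libraries, at 0.652, 0.842 and 0.848 TPM (log2 fold change 0.48, SE 0.19, limma adjusted p = 0.281). Hist2h2ac, below the level needed for a test, measured 0.851, 0.663 and 0.647 TPM in SHMT2 and 0.432, 0.770 and 0.534 TPM in vector libraries.

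H2B genes held both the smallest p among the higher and the smallest among the lower members. Hist1h2bj measured 3.79, 4.56 and 3.61 TPM in SHMT2 libraries and 1.29, 2.65 and 1.36 TPM in vector libraries. Each SHMT2 library exceeded each vector library (log2 fold change 0.88, SE 0.22, limma adjusted p = 0.204). Hist3h2ba had 2.47, 3.52 and 2.76 TPM in SHMT2 libraries and 3.95, 6.60 and 5.03 TPM in vector libraries. Here each SHMT2 library was below each vector library (log2 fold change −0.65, SE 0.20, limma adjusted p = 0.218). For both, the exact permutation test gave p = 0.1, the smallest that 3 against 3 can give.

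Most other named H2B genes overlapped between the groups. Hist2h2bb measured 10.7, 10.7 and 8.25 TPM in SHMT2 libraries and 4.10, 9.44 and 4.21 TPM in vector libraries (log2 fold change 0.73, limma adjusted p = 0.303). Hist2h2be had 5.19, 8.19 and 5.74 TPM in SHMT2 and 4.45, 9.19 and 8.56 TPM in vector libraries. Hist1h2bg, at 1.85, 1.45 and 1.74 TPM in SHMT2 and 1.53, 2.65 and 2.30 TPM in vector libraries, had a log2 fold change of −0.22. In Hist1h2bc the highest value was that of vector replicate 2, with 2.05, 1.36 and 1.58 TPM in SHMT2 and 0.953, 4.26 and 1.60 TPM in vector libraries. Hist1h2bb was the third higher member without overlap, at 1.398 to 2.01 TPM in SHMT2 and 1.01 to 1.19 TPM in vector libraries, and its limma adjusted p was 0.389. Hist1h2be, chosen after its values were seen and too low for the test, measured 1.46, 0.911 and 0.731 TPM in SHMT2 and 0.393, 0.230 and 0.189 TPM in vector libraries, again without overlap.

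H3 genes had low TPM throughout. Hist1h3a measured 2.36, 1.59 and 1.38 TPM in SHMT2 and 1.02, 2.21 and 1.32 TPM in vector libraries. Hist1h3i had 1.35, 1.35 and 0.847 TPM in SHMT2 and 0.284, 1.89 and 0.733 TPM in vector libraries. Hist2h3c1 had 0.247, 1.39 and 1.12 TPM in SHMT2 and 0.903, 1.39 and 1.29 TPM in vector libraries, with SHMT2 replicate 1 far below the rest. The highest H3 gene below the test level, Hist1h3d, ranged from 0.205 to 0.652 TPM in SHMT2 and from 0.387 to 0.488 TPM in vector libraries.

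Among H4 genes, whose protein is among the most conserved known, Hist1h4i measured 6.73, 7.05 and 7.03 TPM in SHMT2 libraries and 3.31, 8.08 and 5.21 TPM in vector libraries. Hist4h4 had 6.31, 3.38 and 4.02 TPM in SHMT2 and 3.43, 4.37 and 3.40 TPM in vector libraries. Both overlapped. Hist1h4d had 3.47, 2.65 and 1.60 TPM in SHMT2 and 1.34, 1.72 and 1.08 TPM in vector libraries, where only vector replicate 2 reached above an SHMT2 library (log2 fold change 0.56, limma adjusted p = 0.316). Hist2h4 measured 1.87, 0.937 and 0.792 TPM in SHMT2 and 1.01, 1.56 and 0.614 TPM in vector libraries.

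**Figure D3:**
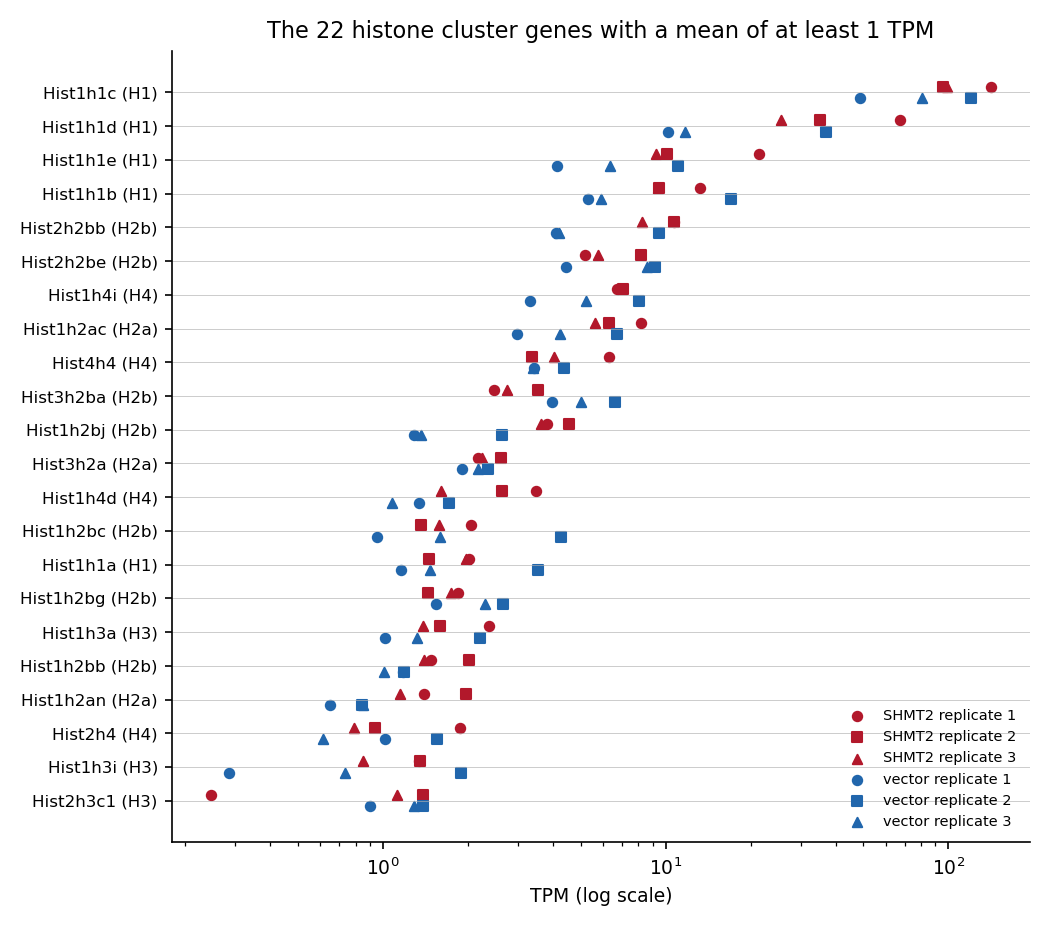
TPM (log scale) of the 22 members with a mean of at least 1 TPM, ordered by mean, in SHMT2 libraries (red, upper point row of each gene) and vector libraries (blue, lower point row), with a marker shape per replicate. Hist1h1c reaches 141 TPM in SHMT2 replicate 1, and only Hist1h2bj, Hist1h2bb and Hist1h2an have all SHMT2 points above, and Hist3h2ba all below, the vector points.

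The 10 members listed at 0 were Hist1h1t, Hist1h2aa and 4 pairs of near-copies. Hist1h2bq and Hist1h2br shared a run of 300 bases of promoter, Hist1h4m and Hist1h4n 285, Hist2h2aa1 and Hist2h2aa2 219, and Hist1h2ao and Hist1h2ap 200. Only 1 other pair of members shared over 72 bases, Hist2h3c1 and Hist2h3c2 with 231, and these were listed at means of 1.06 and 0.0620 TPM. Reads from such copies can fit both places, and how the authors counted them was not given in the sources used here, so the values of these 10 near-copies are uncertain. Of the germ cell genes, Hist1h2ba had 0.0446 TPM in SHMT2 replicate 1 and 0 in the other 5 libraries.

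Genes that act on histone messages and proteins were compared with the same fit, in lists chosen with earlier results of these data known, and limma called 0 members of each. Of 22 genes of histone mRNA synthesis and processing, 15 had a higher and 7 a lower SHMT2 mean, with a median log2 fold change of 0.09. The smallest p were those of the cap-binding genes Ncbp2 (9.46, 8.50 and 9.13 TPM in SHMT2, 7.48, 4.96 and 4.10 TPM in vector libraries) and Ncbp1 (54.2 to 56.0 TPM in SHMT2, 42.7 to 49.4 TPM in vector libraries). Among 21 histone chaperones and related genes, 17 were higher and 4 lower (median log2 fold change 0.25), and 8 were higher at an unadjusted p under 0.05, beside 11.3% of all genes tested. Hat1, which acetylates new histone H4, measured 31.0, 28.5 and 33.2 TPM in SHMT2 and 22.2, 22.5 and 18.5 TPM in vector libraries (log2 fold change 0.54, limma adjusted p = 0.204). The nucleolar chaperone gene Npm1 measured 267 to 358 TPM in SHMT2 and 212 to 221 TPM in vector libraries. Of 10 tested histone genes outside the clusters, 7 were higher and 3 lower (median 0.13), and H2afy, which encodes the variant macroH2A, measured 70.6, 63.1 and 67 TPM in SHMT2 and 56.6, 53.3 and 50.3 TPM in vector libraries. H2afv, an H2A.Z gene, had 75.5 to 89.8 TPM in SHMT2 and 57.9 to 75.5 TPM in vector libraries. Of 26 S phase genes, 18 were higher and 8 lower (median 0.19). Pola1, of DNA polymerase alpha, measured 789 to 957 TPM in SHMT2 and 636 to 781 TPM in vector libraries. The replication licensing gene Cdt1 ran the other way, at 48.6, 39.3 and 41.7 TPM in SHMT2 and 53.8, 67.6 and 53.9 TPM in vector libraries (limma adjusted p = 0.219).

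The clusters also hold other genes. Of 11 that overlap the blocks, Prss16, a protease gene, and Hfe, the iron regulator, were above a mean of 1 TPM, and the others were below it. Hfe measured 6.15, 4.19 and 1.86 TPM in SHMT2 libraries and 1.997, 23.0 and 30.8 TPM in vector libraries, high in vector replicates 2 and 3.

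H3K4me3 lay at nearly every histone gene, including most of those listed at low or 0 TPM. A deposited peak overlapped the window of 500 bases either side of the start in 67 of 68 members in each of the 3 SHMT2 and 2 vector libraries, where 54.6% of 17650 gene windows were marked in every library. Hist1h1t was the exception, with no peak in any of the 5. No member was marked in all SHMT2 libraries and in no vector library (0.3% of all windows), or the reverse (0.017%). Neighbouring starts often share a peak, so the members are not independent.

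Peak strength is given as the fold enrichment from the authors' deposited lists, which ranks peaks within a library. The median over the marked members was 34.9, 25.6 and 30.7 in the SHMT2 libraries and 23.0 and 28.5 in the vector libraries. That put the median member, by its strongest peak, at the 72.0 to 79.9 percentile of all peaks of its library. Those include peaks away from gene starts. The percentile of marked gene starts in general was not computed, so this rank is not particular to histone genes. Of the 10 members listed at 0 TPM, 9 were marked, and their median was 34.9, 26.6 and 29.0 in SHMT2 and 21.7 and 31.9 in vector libraries, close to that of all marked members. All 9 but Hist1h2aa were near-copies, whose TPM are uncertain. Outside the near-copies, the members at 0 TPM were Hist1h1t, which was unmarked, and Hist1h2aa, whose mean fold of 9.92 was the lowest, shared with Hist1h2ba. The near-copies Hist2h2aa1 and Hist2h2aa2, both listed at 0 TPM, had mean folds of 46.0 and 46.9 over the 5 libraries. Hist1h1c, with the highest RNA level, had 33.7, 25.1 and 39.6 in SHMT2 and 44.5 and 54.4 in vector libraries. Hist1h1c had the strongest RNA signal without the strongest mark, and Hist4h4 had the highest mean fold, 50.2.

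The lowest folds belonged to the start pair of Hist1h2ba and Hist1h2aa, which shared a single peak of fold 15.3, 7.85 and 11.0 in SHMT2 and 7.36 and 8.13 in vector libraries. In SHMT2 replicate 4 it spanned chr13:23933671-23934073 (mm10). In all 5 libraries it lay over the body of Hist1h2ba and ended 83 to 124 bases short of that gene's start. In SHMT2 replicates 4 and 6 and vector replicate 6 it also ran past the gene's other end. The peak overlapped the Hist1h2aa window by 96 to 137 bases, so with a minimum overlap of 200 bases 66 members were marked in every library. The next lowest mean folds were 12.9 at Hist1h2ab and 16.1 at Hist1h3b.

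**Figure D4:**
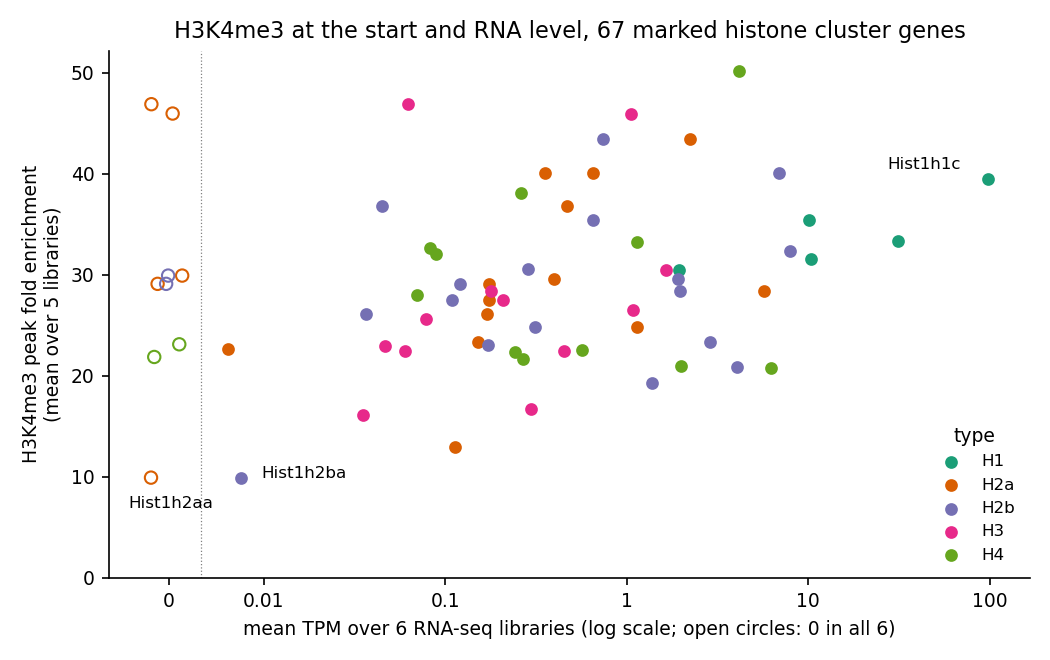
Mean TPM over the 6 RNA-seq libraries (x axis, log scale, with genes at 0 in all 6 as open circles at the left, spread sideways for visibility) and mean fold of the H3K4me3 peak over 5 libraries, from the authors' lists (y axis), for the 67 marked members, coloured by type. The near-copies Hist2h2aa1 and Hist2h2aa2, listed at an uncertain 0 TPM, reach folds of 46.0 and 46.9. Hist1h2aa and Hist1h2ba lie lowest at 9.92.

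Across the 794 kb of the clusters, 500 bases of flank included, H3K4me3 peaks covered 114, 105 and 105 kb in SHMT2 libraries and 96.8 and 99.5 kb in vector libraries, a log2 ratio of group means of 0.14. The libraries differed in the same way as wholes, with 34.05, 31.1 and 27.4 Mb covered in SHMT2 and 24.9 and 27.5 Mb in vector libraries. SHMT2 replicate 6 and vector replicate 6 covered 27.4 and 27.5 Mb in all, and 105 and 99.5 kb of the clusters. The mean fold of the cluster peaks was 27.5, 19.5 and 21.6 in SHMT2 and 18.3 and 21.9 in vector libraries.

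H3K4me1 peaks, broad and weaker, touched the windows of 59 and 58 members in SHMT2 libraries and 46 and 31 members in vector libraries. In every library 27 members were marked (22.4% of all windows). Another 10 were marked in both SHMT2 libraries and in neither vector library (9.4% of all windows), and 0 the other way round (0.0397%). The 10 were Hist1h1c, Hist1h1e, Hist1h2ae, Hist1h2ak, Hist1h2ao, Hist1h2bm, Hist1h2bq, Hist2h2bb, Hist2h3c2 and Hist3h2a. Over all gene windows, 49.9% and 48.7% were marked in SHMT2 and 33.5% and 27.6% in vector libraries, from lists of 48993 and 52056 peaks in SHMT2 and 37274 and 33119 peaks in vector libraries. Both SHMT2 lists held more peaks than both vector lists, and the part of that in the members' counts was not tested. At a −log10 q of at least 10 no member was marked in every library (0.0113% of all windows), and 0 were marked in SHMT2 only (2.37%). Without vector replicate 4, 27 members were marked in SHMT2 only (18.8% of all windows), and without vector replicate 5, 44 were marked in every library left (31.8%). Hist1h2aa, Hist1h2ba, Hist1h4h, Hist2h2aa1, Hist2h2aa2 and Hist2h2ac were marked in none of the 4 libraries.

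DNA at histone gene starts was almost free of methylation in both groups. With at least 3 cytosines covered by 10 calls in all 6 libraries, 25 of the 68 windows could be read. In 23 of them (92%) the mean level was under 5%, where 77.4% of 10555 gene windows were, and the median was 0.385% in the members and 0.346% in all windows. Hist1h1c, over 11 cytosines, had 0.193%, 0.181% and 0% in SHMT2 libraries and 0% in all 3 vector libraries. The highest of the 23 were Hist3h2ba, at 2.95% ± 1.62 in SHMT2 and 2.74% ± 0.776 in vector libraries, and Hist1h1a, at 1.95% ± 0.332 and 1.39% ± 0.741 (SD, n = 3 each).

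The remaining 2 windows were those of Hist1h2ba and Hist1h2aa. Over 14 cytosines, Hist1h2ba was methylated at 95.7%, 93.8% and 94.1% in SHMT2 libraries and 95.4%, 95.6% and 94.2% in vector libraries. Hist1h2aa, over 17 cytosines of which many are the same, had 95.4%, 93.5% and 94.5% in SHMT2 and 95.2%, 95.1% and 92.0% in vector libraries. Groups overlapped in both, the differences were −0.518 and 0.346 percentage points, and the adjusted p of the binomial model were 0.873 and 0.954. A mean level over 90% was found in 1.34% of all gene windows. Each of the 17 cytosines of this start pair was methylated at 87.9% to 97.7%. Of these, 3 lay under the H3K4me3 peak of all 5 libraries, at 87.9% to 96.6%, and the wider peak of SHMT2 replicate 4 covered 7, up to 97.7%. The Hist1h2ba promoter printed above held CCAAT, ATTTGCAT and TATAAA.

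**Figure D5:**
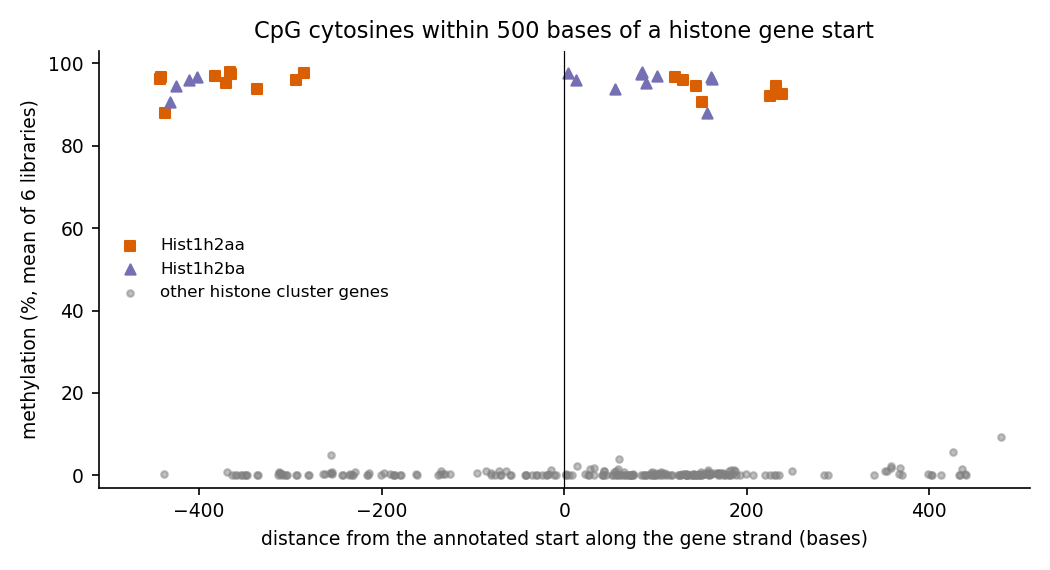
Methylation of CpG cytosines (y axis, percent, mean of the 6 libraries) by distance from the annotated start along the gene's strand (x axis, bases) for members with an annotated start. Cytosines of Hist1h2aa and Hist1h2ba lie between 87.9% and 97.7%, and the 239 cytosines plotted for 19 other members lie at or below 9.35%, 237 of them under 5%.

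Between SHMT2 and vector the binomial model called 0% of the 2358 windows with a mean level of 5% to 95%, and 2.25% of them had an unadjusted p under 0.05. The only members in that range were Hist1h2ba and Hist1h2aa. The largest differences among the other members, SHMT2 minus vector, were −1.43 percentage points at Hist1h4c, where vector replicate 3 had 4.29% and the other 5 libraries 0%, −0.706 at Hist1h1d, −0.675 at Hist1h3e and 0.569 at Hist1h1a. In all of these the SHMT2 and vector libraries overlapped.

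Away from the starts the clusters were not free of methylation. Of 280 cytosines inside the members' windows, the median level was 0.167% and 19 exceeded 50%. Of these 19, 17 were those of the Hist1h2ba and Hist1h2aa start pair. The rest, at 99.8% and 97.7%, lay inside the gene span of Hist1h2bc, which has no annotated start. Of 228 between the windows, the median was 6.50% and 61 (26.8%) exceeded 50%, beside a median of 3.99% and a share of 32.6% over all 1211987 autosomal cytosines read. In the Hist2 cluster none of 11 such cytosines exceeded 50%. In the Hist1 block of 23 members the 153 cytosines between starts averaged 24.2%, 26.9% and 23.6% in SHMT2 and 23.0%, 20.7% and 22.1% in vector libraries. In the Hist1 block of 31 members the 63 averaged 38.8%, 36.1% and 40.2% in SHMT2 and 36.6%, 40.5% and 38.6% in vector libraries. The groups were apart in the first block by less than the range among the SHMT2 libraries and overlapped in the second.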

How the data were processed

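Per the submitters' processing notes, reads were aligned to mm10 with STAR (RNA-seq), BWA (ChIP-seq) or Bismark with Bowtie2 (ERRBS), and peaks came from MACS2; roles not spelled out there were assigned by assay. The authors deposited TPM per gene symbol, and the tool that made them was not given in the sources used here, nor whether input served as control in peak calling. The 6 input libraries were not analysed here. The deposited peak lists, called per library, give fold enrichment, a −log10 q and a display score per peak, and the score was not used. The deposited ERRBS tables give, per the file headers, coverage as a count of calls and the percent of these that stayed C. For ERRBS SHMT2 replicates 2 and 3 the transfection labels read SHMT3 and SHMT4, while their titles, used here, read SHMT2.

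The members and gene lists were chosen with earlier results of these data known. Symbols were matched to RefSeq through its synonyms, all 68 members included, and Hist1h2ap took the one locus left over by elimination. Windows reached 500 bases either side of the annotated start, or of the gene span for 6 members without one. RNA-seq was tested with limma 3.58.1 (R 4.3.3, empirical Bayes with trend) on log2(TPM + 1) for genes averaging at least 1 TPM, with Benjamini-Hochberg adjustment over all genes tested. For single genes a two-sided exact permutation test was added. Methylated and total calls per window (at least 3 cytosines with 10 calls in every library, mean level 5% to 95%) were tested by a two-sided F test of a binomial regression with overdispersion moderated across windows, and a call also needed 10 percentage points. A peak marked a window when they shared 1 base, and peak results have no test. On simulated data the limma test recovered 68% of genes changed by 1 and 96% of genes changed by 2 log2 units among 11117 genes. The ERRBS test recovered 82% of windows changed by 25 points among 2358 windows. The RNA-seq simulation drew independent noise per gene, without shifts that many genes share in 1 library. The ERRBS simulation used a fixed overdispersion that was not estimated from the data. These rates need not hold for the real libraries. Tables were made with Python 3.11.15, pandas 2.3.3, numpy 2.4.6 and scipy 1.17.1.

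Named with values are the up to 4 members of each type with the highest mean TPM, the 5 higher and 5 lower tested members with the smallest p, members not marked by H3K4me3 throughout, the windows with the highest methylation or largest difference, and the 2 genes of smallest p from each list of histone-related genes. Same-numbered libraries did not deviate together, with correlations of −0.417, −0.332 and −0.058 in RNA-seq and −0.113, −0.359 and −0.093 in ERRBS. With so few libraries per group this does not exclude pairing, and the main fits used none.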

Additional observations from a re-analysis of the deposited data

How the results depend on the processing

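limma called 0 members, and H3K4me3 differed at 0 members, under every alternative run. Over all genes, calls were 0 to 845 with single libraries left out (845 without vector replicate 1) and 6 without vector replicates 2 and 3. Members at an unadjusted p under 0.05 numbered 1 to 8 higher (5.61% to 15.8% of all genes tested) and 0 to 1 lower (2% to 14.3%) with single libraries left out, 9 and 0 without vector replicates 2 and 3 (11.8% and 6.51%), and 6 higher with no filter on low values (8.12%). Members whose groups did not overlap numbered 3 to 13 higher (19.2% to 26.2% of all genes tested) and 1 to 3 lower (9.36% to 22.1%) with single libraries left out, 17 higher without vector replicates 2 and 3 (43.2%), and 8 higher with no filter (12.1%). The counts with no filter were out of 58 members, and their shares out of 16877 genes. The other member counts were out of 22. Without vector replicates 2 and 3 the log2 ratios of summed TPM were 1.38 for H1, 0.93 for H2A, 0.69 for H2B, 0.67 for H3 and 0.76 for H4 genes. That lone vector library is assumed to vary like the others. Over all 6 libraries, summing only genes averaging at least 1 TPM, added after seeing the data, left the ratios within 1 SD.

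With single libraries left out, the log2 fold change ranged from −0.442 to 0.0104 for Hist2h2be (highest without vector replicate 2), from −0.480 to 0.235 for Hist1h2bc (likewise), from −0.00690 to 0.363 for Hist4h4 (lowest without SHMT2 replicate 1), from −0.121 to 0.255 for Hist2h4 (likewise), from −0.0466 to 0.538 for Hist1h3i (lowest without vector replicate 1) and from −0.426 to 0.0424 for Hist2h3c1 (highest without SHMT2 replicate 1), so these signs turned. Leaving out both vector replicates 2 and 3 turned Hist2h2be (0.416), Hist1h2bc (0.440) and Hist1h2bg (0.0771). When vector replicate 1 was left out, Ncbp2 and H2afv passed at limma adjusted p of 0.0309 and 0.0488.

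H3K4me1 marked 0 members in every library at a −log10 q of at least 10, 15 with an overlap of 200 bases (13.7% of all windows), 51 with windows of 1000 bases (43.7%) and 27 to 44 with single libraries left out (22.5% to 31.8%). In SHMT2 only it marked 0 at that q (2.37%), 13 with the 200-base overlap (8.67%), 2 with the wider windows (5.65%) and 11 to 27 with single libraries left out (12.1% to 18.8%), and in vector only 0 to 1 (0.187% to 0.272%). Mean methylation of the readable members differed by −0.0916 percentage points between SHMT2 and vector, by 0.0522 at 30 calls and by 0.121 in windows of 1000 bases. The difference at Hist1h2aa ranged from −0.701 without vector replicate 3 to 0.890 without vector replicate 1, with −0.107 without SHMT2 replicate 1, and that at Hist1h2ba turned to 0.346 in windows of 1000 bases. The cause of these shifts was not tested.

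With the replicate number as a block, limma called 0 genes, 2 members were higher and 1 lower at an unadjusted p under 0.05, and ERRBS called 0 windows, so the block changed no call. No paired test was run on the peak results, which have no test. Between same-numbered SHMT2 and vector libraries, H3K4me1 marked 59 and 46 members in replicate 4 and 58 and 31 in replicate 5, and H3K4me3 covered 114 and 96.8 kb of the clusters in replicate 4 and 105 and 99.5 kb in replicate 6. Pseudocount, filter and block give no separate value for type sums, nor overlap and window for covered length, nor bounds and block for mean methylation. RNA-seq depth is unknown, and 43 windows had too few cytosines for ERRBS.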
